A study of Mus musculus with 30 samples.

Results

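The genes described here are 45 molecular chaperones and folding helpers of the cytosol, the endoplasmic reticulum (ER) and the mitochondrion, followed in mouse brain endothelium across adult life. Members were chosen by name as the HSP90 and HSP70 families, the HSP110 relatives, a small heat shock protein, the chaperonin subunits, co-chaperones, the transcription factor Hsf1 and ER lectins and disulfide isomerases. All 45 were found among the 48795 genes counted, and all 45 passed the filter on low counts that 16844 genes passed. RNA came from primary brain endothelial cells, the cells that line blood vessels and form the blood-brain barrier, of wild-type (WT) mice that had no treatment. There were 5 ages (2, 6, 12, 18 and 24 months) with 3 male and 3 female libraries each, 30 in all, and the study asked how expression changes with age after correction for sex. The design text counts the 6 libraries of an age as biological replicates. The sources used here do not give how the cells were isolated or whether a library held cells of 1 mouse or of several.

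Chaperones bind proteins that are not yet folded, or have lost their fold, and keep them from clumping. HSP70 proteins hold short hydrophobic stretches of a chain in cycles of ATP use, J-domain proteins hand chains to them, HSP110 proteins reset them, and HSP90 brings kinases, hormone receptors and nitric oxide synthase to their active form with the help of co-chaperones. The ring-shaped chaperonins fold chains inside a chamber: CCT in the cytosol, with actin and tubulin as its main clients, and HSP60 in mitochondria. Heat and other stress switch many of these genes on through HSF1, and ER stress switches on the ER members through ATF6 and XBP1.

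Of the 45 genes, 22 fell with age and none rose (edgeR quasi-likelihood test of the slope on age with sex as covariate, Benjamini-Hochberg adjusted p under 0.05, n = 30). Over all 16844 genes 10.9% had a slope that passed, 5.22% falling and 5.72% rising. The median slope of the 45 was -0.39 log2 over the 22 months from 2 to 24, against 0.03 log2 for all genes tested, and 40 of the 45 slopes were negative. The highest estimates were those of Hspa1a and Hspa1b, whose slopes did not pass here and were called rising by DESeq2. The members together took 1.04 ± 0.117% of the gene counts (SD, n = 6) at 2 months, 0.976 ± 0.148% at 6, 0.957 ± 0.111% at 12, 0.872 ± 0.0754% at 18 and 0.810 ± 0.0508% at 24 months. The list was drawn up with earlier results of these data known, so these counts describe it and do not test it. In whole populations of cells, fewer cells of a type and less RNA per cell cannot be told apart.

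**Figure D1:**
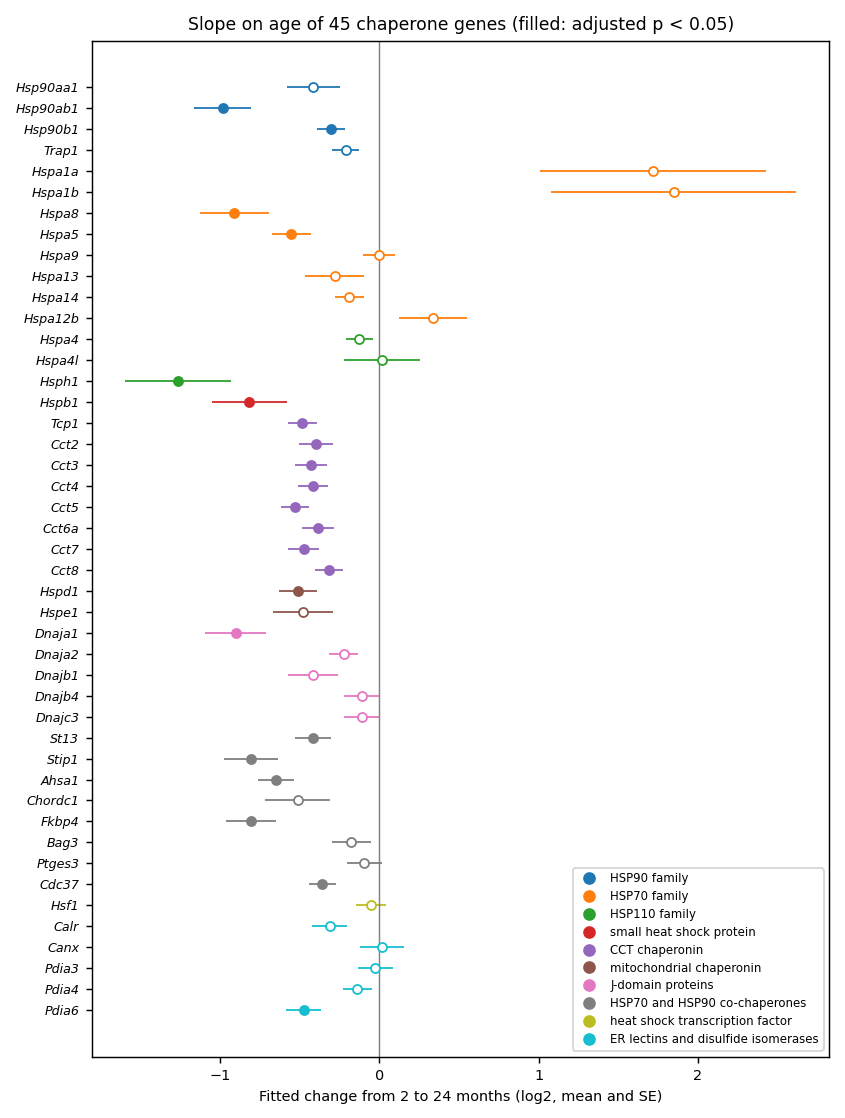
Fitted change of each of the 45 chaperone genes from 2 to 24 months (x axis, log2; the point is the estimate and the line its SE; filled points passed at adjusted p under 0.05), coloured by family. All 22 filled points lie left of 0, and Hspa1a and Hspa1b, open points at the far right, have the widest errors.

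Several features of the libraries moved with age too. In the 18-month libraries 7.99 to 13.1% of reads lay outside annotated genes, above every library of 2 (3.82 to 6.61%), 6 (4.51 to 7.89%) and 12 months (4.89 to 6.83%), and 4.62 to 9.09% at 24 months. Gene counts per library were 24140980 to 50464366, and the 24-month libraries (from 35868349) were all deeper than those of 2 months (up to 33187952). Longer genes are those with more exon bases than the median gene tested. They took 53.8 ± 1.72% of gene counts (SD, n = 6) at 2 months, 49.7 ± 4.51% at 6, 52.5 ± 3.37% at 12, 57.8 ± 2.41% at 18 and 53.9 ± 1.65% at 24. The 10 endothelial markers, such as Cldn5 and Pecam1, summed to 17830 to 23142 CPM at 2 months and 17919 to 22105 at 24. CPM are counts scaled by each library's total after that total was multiplied by its TMM normalization factor. The 8 astrocyte markers summed to 475 to 1297 CPM at 2 months and 208 to 613 CPM at 24, and the 6 choroid plexus and ependyma markers to 917 to 4317 CPM and 628 to 2275 CPM. The sums went the other way for 7 neuron markers, from 29.3 to 43.4 CPM at 2 months to 109 to 152 CPM at 24 with no overlap. Most of that was Stmn2 (22.3 to 38.0 and 104 to 149 CPM), while the neuronal Rbfox3 stayed at or below 0.746 CPM in every library. The 8 pericyte markers summed to 430 to 726 CPM at 2 months and 455 to 1170 CPM at 24, and the 6 smooth muscle markers to 80.2 to 343 and 82.2 to 395 CPM. For microglia (8 markers) the ranges were 249 to 1328 and 221 to 498 CPM, for oligodendrocytes (7) 133 to 919 and 232 to 680.1 CPM, for fibroblasts (6) 248 to 636 and 162 to 587 CPM, and for erythroid cells (5) 436 to 1039 and 532 to 1430 CPM. Markers of T cells reached at most 4.16 CPM in sum and those of neutrophils 27.7 CPM. 2 libraries stood apart in the members' sum. Male 6-month replicate 2 was the highest of all 30 at 13277 CPM against 8463 to 10137 CPM in the others of its age. Male 2-month replicate 1 was the lowest of its age at 8271 CPM against 10369 to 12302 CPM, and the highest of its age in astrocyte and microglial markers. With the share of reads outside genes as a further covariate, 7 of the 22 slopes still passed and all 22 stayed negative, with their median going from -0.50 to -0.40 log2. The same covariate took the share of all genes called from 10.9% to 2.39%. Since every 18-month library lay above those of 2, 6 and 12 months in it, it can hardly be told apart from that age. The 7 were Hsp90ab1, Hspa8, Cct5, Dnaja1, Stip1, Ahsa1 and Fkbp4. The part of the other cell types in the members' changes was not tested.

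Of the 4 HSP90 genes 2 fell with age, the cytosolic Hsp90ab1 and the ER-resident Hsp90b1, and the slopes of Hsp90aa1 and Trap1 did not pass. Hsp90ab1 (chromosome 17, 45567775 to 45573271, GRCm38), the constitutive cytosolic HSP90, was the most abundant member per kb of annotated exon. It ranged from 985.5 to 1891 CPM (median 1516) at 2 months, 917 to 2331 (1354) at 6, 1024 to 1751 (1221) at 12, 647 to 1169 (843) at 18 and 620.4 to 978 CPM (813) at 24 months. Every 24-month library lay below every 2-month library, while the highest library of all was the 6-month one that stands apart. Its slope was -0.98 ± 0.18 log2 over the 22 months (SE, adjusted p = 4.61e-04). Against 2 months it was 0.76 ± 0.20 log2 lower at 18 months (adjusted p = 0.0077) and 0.89 ± 0.20 lower at 24 (adjusted p = 0.00412).

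Hsp90b1, the ER member of the family (GRP94), had a falling slope of -0.30 ± 0.09 log2 (adjusted p = 0.0251). Its level went from 432 to 597 CPM (median 536) at 2 months to 369.9 to 466 CPM (420.2) at 24, and the ages overlapped. This call was the only one of the 22 that leaving out 1 library ended, in 3 of 30 fits. The heat-inducible cytosolic Hsp90aa1 had a slope of -0.42 ± 0.17 log2 (adjusted p = 0.108), though all its 24-month libraries (18.1 to 22.5 CPM) lay below all those of 2 months (23.4 to 35.2 CPM). In sequence, 47.5% of its 50-base stretches also occur in other annotated genes, mainly pseudogenes, and reads that map to several places are not counted. Trap1, the mitochondrial HSP90, had a slope of -0.21 ± 0.08 log2 (adjusted p = 0.104).

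**Figure D2:**
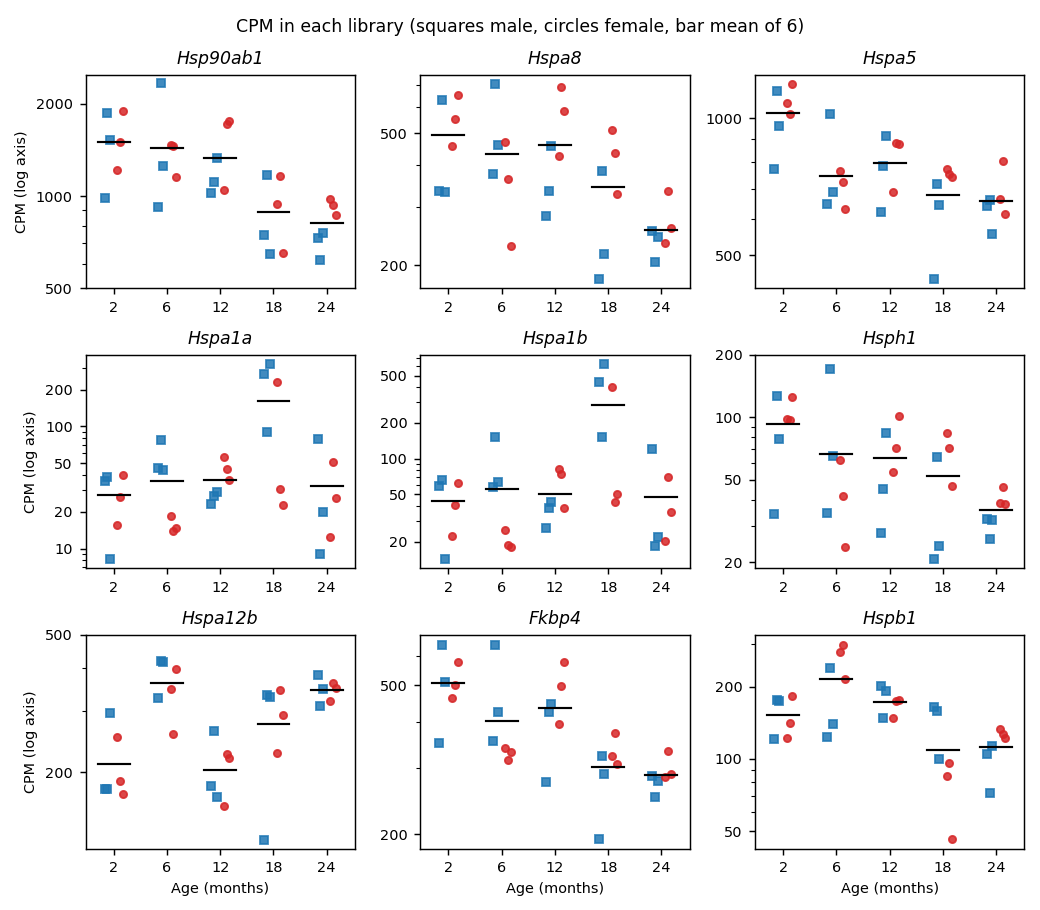
CPM of 9 members in each library (log axis; squares male, circles female, bar the mean of 6 libraries) against age in months. Hsp90ab1, Hspa5, Fkbp4 and Hspa8 step down towards 24 months, Hspa1a and Hspa1b stand high in 4 of the 6 libraries of 18 months, and Hspa12b alternates between low and high ages.

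The HSP70 family did not move as a body: 2 of its 8 genes fell along the slope, and 4 others departed from a straight line. Of all genes 17.7% departed from a line. With the share of counts in longer genes as a covariate 1 of the 45 members still did, against 8.72% of all genes. Hspa8 (chromosome 9, 40800984 to 40810087), the constitutive cytosolic HSP70, was at 332 to 651 CPM (median 504) at 2 months, 228 to 702 (418) at 6, 281 to 687 (442) at 12, 182 to 511 (356) at 18 and 204 to 335 CPM (248) at 24 months. The spread was wide at every age except 24 months, and only the highest 24-month library reached the range of 2 months. Its slope was -0.91 ± 0.22 log2 (adjusted p = 0.00604), and 24 against 2 months gave -0.95 ± 0.24 log2 (adjusted p = 0.0111). Hspa8 shares 39.4% of its 50-base stretches with other genes, so its counts are uncertain.

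Hspa5, which encodes the ER HSP70 BiP (chromosome 2, 34771970 to 34777547), was already lower at 6 months. It ranged from 773 to 1187 CPM (median 1051) at 2 months, 630.3 to 1024 (705) at 6, 623 to 915 (833) at 12, 444 to 772 (730.0) at 18 and 557 to 804 CPM (652) at 24 months. All 6 libraries of 18 months were below all 6 of 2 months. The difference from 2 months was -0.46 ± 0.13 log2 at 6 months (adjusted p = 0.0275), -0.60 ± 0.13 at 18 (adjusted p = 0.00162) and -0.65 ± 0.13 at 24 (adjusted p = 0.00142). The call at 6 months ended with the share of counts in longer genes as a covariate (adjusted p = 0.118), and that at 18 months with reads outside genes (-0.37 ± 0.21 log2, adjusted p = 0.555).

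Hspa1a and Hspa1b, neighbouring genes on chromosome 17 (34969190 to 34972156 and 34956436 to 34959238) that encode the stress-inducible HSP70, were high at 18 months. Hspa1a was at 266, 90.3 and 322 CPM in the 3 male and 232, 30.8 and 22.6 CPM in the 3 female libraries of that age. In the 24 libraries of the other ages it ranged from 8.26 to 78.6 CPM. So 4 libraries of 18 months lay above every library of any other age, and the remaining 2, female replicates 2 and 3, lay within their range. Hspa1b was at 440.3, 152 and 622 CPM in the males and 399, 42.9 and 50.2 CPM in the females of 18 months, with the same 4 libraries highest. Its other libraries held 14.4 to 152 CPM, with the highest in male 6-month replicate 2.

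Against 2 months Hspa1a was 2.45 ± 0.58 log2 higher at 18 months (adjusted p = 0.00346) and Hspa1b 2.57 ± 0.61 log2 higher (adjusted p = 0.00363). From 18 to 24 months they fell by 2.21 ± 0.57 (adjusted p = 0.0472) and 2.48 ± 0.60 (adjusted p = 0.0339) on the log2 scale. These last calls ended in 21 and 7 of the 30 fits that left out 1 library, while those of 18 against 2 months passed in all 30. With reads outside genes as covariate the differences at 18 months were 2.36 ± 1.02 and 2.67 ± 1.07 log2 and no longer passed (adjusted p = 0.334 and 0.283). Within the 18-month libraries the 4 that were high in Hspa1a had 10.4, 7.99, 8.56 and 12.7% of reads outside genes, and the 2 that were low 13.1 and 9.38%. Immediate early genes respond within minutes to stimuli that include the dissociation of tissue. They summed to 3802, 2948, 3439 and 3915 CPM in the 4 and 1865 and 2903 CPM in the 2. The 4 and the 2 were set apart by their Hspa1a values, and their differences in reads outside genes and in these sums were not tested. Of the 2918 stretches of 50 bases in Hspa1a 66.3% occur in another gene, mainly Hspa1b, and of those of Hspa1b 62.3%. On the other strand 19.0% of the exon bases of Hspa1a overlap Gm20481, and reads over 2 genes are not counted. The counts are therefore those of the parts that differ between the copies, and the split between the copies is uncertain.

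The bases before the start of transcription are nearly the same in both genes, which is why they are shown. In the RefSeq windows of GRCm38.p6 247 of 250 upstream bases were identical (98.8%). Printed here are the bases from -120 to -31 of each gene, on the minus strand, with a pair of inverted heat shock units (GAANNTTC) and a CCAAT box on the other strand (ATTGG) in capitals.
Hspa1a, chr17:34972187-34972276: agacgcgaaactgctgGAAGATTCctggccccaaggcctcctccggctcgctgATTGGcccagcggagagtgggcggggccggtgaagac
Hspa1b, chr17:34959269-34959358: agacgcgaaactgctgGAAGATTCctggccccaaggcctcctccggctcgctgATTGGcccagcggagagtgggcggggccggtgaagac

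Hspa12b (chromosome 2, 131127280 to 131146321), a distant HSP70 relative that is enriched in endothelium, departed from a straight line (adjusted p = 0.00337), as did 17.7% of all genes. It was at 173 to 297 CPM (median 183) at 2 months, 258 to 419 (373) at 6, 160.1 to 263 (201.3) at 12, 128 to 346 (312) at 18 and 310.4 to 382 CPM (349) at 24 months. The 24-month libraries all lay above those of 2 months, and those of 12 months lay near the level of 2 months. It was higher at 6 months (0.78 ± 0.18 log2, adjusted p = 0.00865) and at 24 months (0.71 ± 0.18 log2, adjusted p = 0.0116) than at 2, and fell by 0.83 ± 0.18 from 6 to 12 months (adjusted p = 0.0116). Hspa13, an ER-bound member without the substrate-binding domain, averaged 30.5 ± 5.40 CPM (SD, n = 6) at 2 months and was lower at 6 (19.2 ± 5.11 CPM, -0.67 ± 0.19 log2, adjusted p = 0.0252) and at 18 months (19.4 ± 5.38 CPM, -0.66 ± 0.19 log2, adjusted p = 0.0145). At 12 and 24 months it averaged 23.7 and 23.4 CPM. With longer genes as covariate the call at 6 months ended (adjusted p = 0.0817), and with reads outside genes the difference at 18 months was -1.13 ± 0.31 log2 (adjusted p = 0.0616). The mitochondrial Hspa9 had a slope of 0.00 ± 0.10 log2 (adjusted p = 0.989) and the ribosome-associated Hspa14 one of -0.19 ± 0.09 log2 (adjusted p = 0.182).

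Among the HSP110 genes, whose products exchange the nucleotide of HSP70, Hsph1 fell and the other two had slopes that did not pass. Hsph1 (chromosome 5, 149614287 to 149636376) went from 34.3 to 127 CPM (median 97.6) at 2 months through medians of 51.7, 62.7 and 55.6 CPM to 25.9 to 45.9 CPM (35.4) at 24. Only male replicate 1 of 2 months, the library that stands apart, was as low as those of 24 months. Its slope of -1.26 ± 0.33 log2 (adjusted p = 0.0125) was the steepest fall of the 45, and with reads outside genes as covariate it was -1.30 ± 0.42 log2 (adjusted p = 0.11). Hspa4 had a slope of -0.13 ± 0.09 log2 (adjusted p = 0.359) and Hspa4l one of 0.02 ± 0.24 log2 (adjusted p = 0.979). The small heat shock protein gene Hspb1, whose product holds damaged proteins and acts on the actin skeleton, fell with a slope of -0.82 ± 0.24 log2 (adjusted p = 0.0225). Its level was 121 to 183 CPM (median 158) at 2 months, 123 to 299.8 (228) at 6, 147 to 202 (175) at 12, 46.5 to 164 (98.1) at 18 and 71.9 to 133 CPM (118) at 24 months. The 3 female libraries and male replicate 2 of 6 months lay above every other library. It shares 50.1% of its 50-base stretches with pseudogenes, and with the share of longer genes as covariate its slope was -0.50 ± 0.20 log2 (adjusted p = 0.103).

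All 8 CCT subunits fell, by 0.32 (Cct8) to 0.53 (Cct5) on the log2 scale over the 22 months. The ring holds 1 copy of each subunit, and the 8 slopes lay close together, with a median of -0.42 log2. Cct5 (chromosome 15, 31590800 to 31601804) had the highest level of the subunits per kb of annotated exon, at 84.4 CPM per kb. Without regard to length Cct7 stood higher, at a mean of 402 CPM against 233 CPM for Cct5. Cct5 was at 206 to 298 CPM (median 279) at 2 months, 228 to 308 (243) at 6, 224 to 274 (263) at 12, 171 to 216 (195) at 18 and 159 to 215 CPM (200.3) at 24 months. Apart from male replicate 1 of 2 months (206 CPM), the libraries of the 3 younger ages lay above every library of 18 and 24 months. Its slope was -0.53 ± 0.09 log2 (adjusted p = 1.88e-04), -0.52 ± 0.15 in the 15 male libraries and -0.54 ± 0.12 in the 15 female ones. Tcp1, the alpha subunit (chromosome 17, 12915701 to 12925067), was at 103 to 170.4 CPM (median 151) at 2 months and 101 to 123 CPM (105) at 24, a slope of -0.48 ± 0.09 log2 (adjusted p = 6.04e-04).

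For 3 CCT genes the step from 12 to 18 months itself passed, a step at which 6.73% of all genes were called lower. Cct7 went from 345 to 512 CPM (median 422) at 12 months to 266 to 367 CPM (336) at 18, which is -0.38 ± 0.10 log2 (adjusted p = 0.0159), and to 311 to 411 CPM (349) at 24. Over the same step Cct3 fell by 0.38 ± 0.10 (adjusted p = 0.0141) and Cct5 by 0.39 ± 0.09 (adjusted p = 0.00653), and the step of the other 5 did not pass. With longer genes as covariate the step of Cct3 was -0.24 log2 (adjusted p = 0.216) and that of Cct5 -0.33 (adjusted p = 0.0746), and only Cct7 still passed. With reads outside genes as covariate the 3 steps were -0.11 (Cct3), -0.10 (Cct5) and -0.15 log2 (Cct7), and none passed (adjusted p from 0.87 to 0.904). Against 2 months no subunit passed at 6 or 12 months, 7 passed at 18 (all but Cct2; 8.7% of all genes were lower) and 5 at 24 (Tcp1, Cct4, Cct5, Cct7 and Cct8; 3.48% of all genes were lower). From 18 to 24 months none passed, and the median difference was 0.01 log2. With reads outside genes as covariate only Cct5 kept its slope call, at -0.34 ± 0.09 log2 (adjusted p = 0.0312), and no subunit passed at 18 months.

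**Figure D3:**
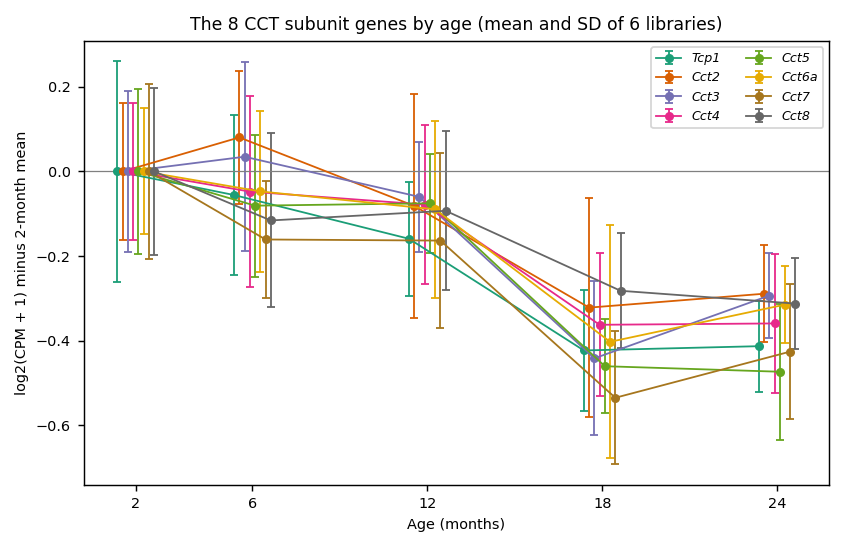
Mean of log2(CPM + 1) of the 8 CCT subunit genes at each age, less the mean at 2 months (y axis; bars are the SD of 6 libraries), against age in months. The 8 lines stay close together, drop between 12 and 18 months and run level from 18 to 24.

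Of the mitochondrial chaperonin pair, Hspd1 (HSP60; chromosome 1, 55077835 to 55088243) had a falling slope of -0.51 ± 0.12 log2 (adjusted p = 0.00497). It was at 53.6 to 79.6 CPM (median 67.5) at 2 months, 51.9 to 87.1 (55.8) at 6, 51.7 to 75.3 (63.8) at 12, 36.8 to 57.0 (55.3) at 18 and 42.8 to 49.5 CPM (47.4) at 24 months. The 24-month libraries lay below all those of 2 months. Hspe1, its lid HSP10, had a slope of -0.48 ± 0.19 log2 (adjusted p = 0.0972) at a mean of 9.54 ± 1.13 CPM (SD, n = 6) at 2 months and 8.12 ± 0.753 CPM at 24, and fell by 0.62 ± 0.18 from 12 to 18 months (adjusted p = 0.022). That step was -0.22 ± 0.16 log2 with longer genes as covariate (adjusted p = 0.492) and -0.26 ± 0.26 with reads outside genes (adjusted p = 0.883). Both share sequence with pseudogenes, 42.1 and 22.8% of their 50-base stretches. The 2 genes lie head to head, and their windows share a site where 2 matches to 3 alternating heat shock units (TTCNNGAANNTTC or GAANNTTCNNGAA) overlap. It is read here from each gene's own strand, with the match nearer the left end in capitals.
Hspd1, chr1:55088056-55088084, minus strand: gcggggccTTCCGGAAGGTTCtagaacgg
Hspe1, chr1:55088051-55088079, plus strand: acggtccgTTCTAGAACCTTCcggaaggc

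Among the J-domain genes Dnaja1, a partner of cytosolic HSP70 (chromosome 4, 40722150 to 40737149), had a falling slope of -0.90 ± 0.19 log2 (adjusted p = 0.00238). It was at 90.04 to 169.7 CPM (median 124) at 2 months, 66.4 to 186 (104) at 6, 77.9 to 159 (110.4) at 12, 47.6 to 109 (82.8) at 18 and 60.5 to 79.2 CPM (65.7) at 24 months. No library of 24 months reached the lowest of 2 months. Dnajc3, an ER co-chaperone of BiP that also restrains the kinase PERK, passed against 2 months at 6 months only, at 189 ± 31.9 CPM (SD, n = 6) against 246 ± 18.3 CPM (-0.38 ± 0.10 log2, adjusted p = 0.0181). It averaged 234 CPM at 12, 233 at 18 and 199.8 ± 12.4 CPM at 24 months, where all 6 libraries (179 to 214 CPM) lay below all 6 of 2 months (219.9 to 271 CPM) although the difference did not pass (-0.30 ± 0.10 log2, adjusted p = 0.0598). With longer genes as covariate the difference at 6 months was -0.23 ± 0.09 log2 and did not pass (adjusted p = 0.136). The stress-inducible Dnajb1 had a slope of -0.42 ± 0.16 log2 (adjusted p = 0.0803), and Dnaja2 and Dnajb4 slopes of -0.23 and -0.11 log2 (adjusted p = 0.109 and 0.572).

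The co-chaperones that serve HSP70 and HSP90 fell in 5 of 8 cases. Fkbp4 (chromosome 6, 128429735 to 128438677), a prolyl isomerase that docks on HSP90 in steroid receptor complexes, was at 352 to 643 CPM (median 505) at 2 months, 316 to 642 (347) at 6, 276 to 579 (435) at 12, 195 to 373 (316) at 18 and 251 to 335 CPM (286) at 24 months. The 24-month libraries lay below all those of 2 months, and male replicate 2 stood alone at the top of the 6-month libraries. Its slope was -0.81 ± 0.16 log2 (adjusted p = 0.00102). Stip1, the adaptor HOP that joins HSP70 to HSP90 (chromosome 19, 7020702 to 7039967), fell by as much (-0.81 ± 0.17 log2, adjusted p = 0.00209), from 131 to 223 CPM (median 167) at 2 months to 85.4 to 119.6 CPM (95.6) at 24.

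Ahsa1, which speeds up the ATP cycle of HSP90 (chromosome 12, 87266479 to 87273998), ranged from 115 to 158 CPM (median 125) at 2 months, 102 to 173 (113) at 6, 90.9 to 147 (121) at 12, 72.5 to 110.1 (95.3) at 18 and 75.8 to 96.5 CPM (84.1) at 24 months. It was the only member with both old ages wholly below 2 months, and its slope was -0.65 ± 0.11 log2 (adjusted p = 3.20e-04). St13, the HSP70 partner HIP, fell by 0.42 ± 0.11 (adjusted p = 0.0154) and Cdc37, which brings kinases to HSP90, by 0.36 ± 0.09 log2 (adjusted p = 0.00668). Cdc37 departed from a straight line (adjusted p = 0.0173), as did 17.7% of all genes. It averaged 255 ± 20.4, 269 ± 22.4 and 267 ± 25.8 CPM (SD, n = 6) at 2, 6 and 12 months and 202 ± 15.6 and 216 ± 16.1 CPM at 18 and 24. Its step from 12 to 18 months was -0.40 ± 0.08 log2 (adjusted p = 0.00116), and -0.18 ± 0.10 with reads outside genes as covariate (adjusted p = 0.645).

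The other three co-chaperones had slopes that did not pass, with changes at single ages. Chordc1, a heat-inducible HSP90 binder, was 0.71 ± 0.22 log2 lower at 24 than at 2 months (adjusted p = 0.0409). Ptges3, the HSP90 co-chaperone p23, passed at 6 months only, higher, at 53.9 ± 7.42 CPM (SD, n = 6) against 41.7 ± 4.51 CPM at 2 (0.37 ± 0.10 log2, adjusted p = 0.0233). That call ended with longer genes as covariate (adjusted p = 0.0922) and without the filter on low counts (adjusted p = 0.053). Bag3, which links HSP70 to selective autophagy, passed at 18 months only, lower, at 43.3 ± 3.64 CPM against 55.2 ± 9.14 CPM at 2 (-0.36 ± 0.12 log2, adjusted p = 0.0334). The calls of Chordc1 and Bag3 ended with reads outside genes as covariate (adjusted p = 0.102 and 0.669) and without the filter (0.0922 and 0.0551), and that of Bag3 also with longer genes (0.0509). Whether these ages differ from the remaining ones was not tested beyond the steps between neighbouring ages, which did not pass for these genes. Hsf1, the regulator of the heat shock response (chromosome 15, 76477422 to 76501913), was at 103 to 130.3 CPM (median 124) at 2 months, 107 to 144 (136) at 6, 94.8 to 138 (109) at 12, 93.7 to 147 (123) at 18 and 95.6 to 132 CPM (123) at 24 months. The ages overlapped throughout, and its slope was -0.06 ± 0.09 log2 (adjusted p = 0.752), an estimate for the transcript and not for the activity of the protein.

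In the ER, the disulfide isomerase gene Pdia6 (chromosome 12, 17266545 to 17284770) fell along a slope of -0.48 ± 0.11 log2 (adjusted p = 0.00396). It was at 349 to 497 CPM (median 464) at 2 months, 305 to 462 (343) at 6, 324 to 437 (347) at 12, 199 to 382 (334) at 18 and 273 to 337 CPM (305) at 24 months. The 24-month libraries lay below all those of 2 months. The lectin chaperone Calr (calreticulin) had a slope of -0.31 ± 0.11 log2 (adjusted p = 0.0542), and its membrane-bound partner Canx (calnexin) one of 0.01 ± 0.14 log2 (adjusted p = 0.962). The isomerase Pdia3 had a slope of -0.03 ± 0.11 log2 (adjusted p = 0.908) and Pdia4 one of -0.14 ± 0.09 log2 (adjusted p = 0.362). By compartment, 3 of 9 ER genes and 1 of 4 mitochondrial genes fell, with medians of -0.28 and -0.35 log2. Of the 13 heat-inducible genes of the cytosol 5 fell, with a median of -0.42 log2. These lists leave out the other members of the cytosol and nucleus. Among those, Hsp90ab1, Hspa8, Dnaja1, St13, Cdc37 and all 8 CCT subunits fell. The slopes of the rest (Hspa14, Hspa12b, Hspa4, Dnaja2, Ptges3 and Hsf1) did not pass.

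The RefSeq promoter windows (250 bases before to 50 after the start, GRCm38.p6) covered 37 members, and only the 250 bases before the start were searched. Members were counted as genes with a match in any of their windows, and the shares given beside them are of single windows. The units therefore differ for each motif, and a gene with several windows has more chances of a match. The ER stress element (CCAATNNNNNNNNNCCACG, either strand) occurred in 6 of the 37 members and in 0.113% of 32817 windows. The 6 sites are printed since all 6 genes encode ER proteins, and they include the 3 ER members that fell. Each line gives 39 bases of the gene's own strand with the match in capitals, and the match of Calr lies on the opposite strand. The window of Hsp90b1 holds 2 matches, of which 1 is printed.
Hspa5, chr2:34772015-34772053, plus strand: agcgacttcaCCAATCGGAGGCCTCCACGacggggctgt
Hsp90b1, chr10:86705628-86705666, minus strand: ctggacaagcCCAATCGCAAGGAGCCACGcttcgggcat
Pdia6, chr12:17266481-17266519, plus strand: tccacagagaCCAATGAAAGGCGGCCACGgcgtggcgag
Canx, chr11:50325790-50325828, minus strand: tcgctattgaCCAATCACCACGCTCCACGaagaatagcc
Dnajc3, chr14:118937817-118937855, plus strand: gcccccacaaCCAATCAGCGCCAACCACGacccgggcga
Calr, chr8:84847065-84847103, minus strand: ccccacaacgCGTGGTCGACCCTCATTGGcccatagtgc

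Canx, Dnajc3 and Calr hold the element as well and had slopes that did not pass. The 3-unit heat shock element occurred in 2 members (Hspd1 and Hspe1) and 0.466% of all windows, and its 2-unit core (GAANNTTC or TTCNNGAA, which the longer element contains) in 12 members and 12.8% of windows. The shorter CCAAT box, which the ER stress element contains, occurred in 21 members and 33.8% of windows. A match is a run of letters and no measured binding site.

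Set against 2 months age by age, the members' calls came late. At 6 months 2 members were higher and 3 lower, with 8.76% of all genes called (4.07% higher, 4.69% lower), and no member passed at 12 months, with 2.94% called. For 12 months DESeq2 also called none, and 3 members had an unadjusted p under 0.05. At 18 months 2 were higher and 19 lower (18.8% of all genes called, 10.1% higher and 8.7% lower), and at 24 months 1 was higher and 18 lower (8.35% called, 4.86% higher and 3.48% lower). In 4 members the libraries of 18 months lay wholly below those of 2 months, against 3.78% of all genes (8.47% in either direction). In 11 members those of 24 months did not overlap those of 2 months (6.5% of all genes), 10 of them lower (2.76%) and Hspa12b higher (3.74%). The 4 comparisons share the 2-month libraries. The steps between neighbouring ages gave 1 lower, Hspa12b, from 6 to 12 months (1.89% of all genes called, 1.21% lower). From 12 to 18 months 2 were higher and 9 lower (13.2% called, 6.48% higher and 6.73% lower), and from 18 to 24 months 2 were lower, Hspa1a and Hspa1b (1.26% called, 0.748% lower).

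The count at 6 months was greater without male replicate 2 of that age, with 2 members higher and 10 lower. Without female replicate 1 of 2 months it fell to 2. The shares over all genes are not given for these fits. With reads outside genes as covariate no member passed at 18 months against 2 (1.27% of all genes called) or 12 (0.107%). At 24 months against 2 the calls were 9 lower and 1 higher (5.69%). This covariate can hardly be told apart from the age of 18 months, and it widened the errors there. Hsp90ab1 at 18 months went from -0.76 ± 0.20 to -0.76 ± 0.34 log2, while the estimate of Hsp90b1 shrank from -0.33 ± 0.10 to -0.07 ± 0.15 log2. A lost call at 18 months thus does not show that the difference is gone. With longer genes as covariate 1 member passed at 6 months against 2 (5.14%) and 3 at 18 against 12 (3.22%). The 10 called at 24 months against 2 with reads outside genes as covariate were Hsp90ab1, Hspa8, Hspa5, Cct5, Dnaja1, Stip1, Ahsa1, Fkbp4, Pdia6 and Hspa12b. Under a test of any difference between the ages 28 of the 45 passed (29.3% of all genes), and 8 departed from a straight line (17.7%).

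**Figure D4:**
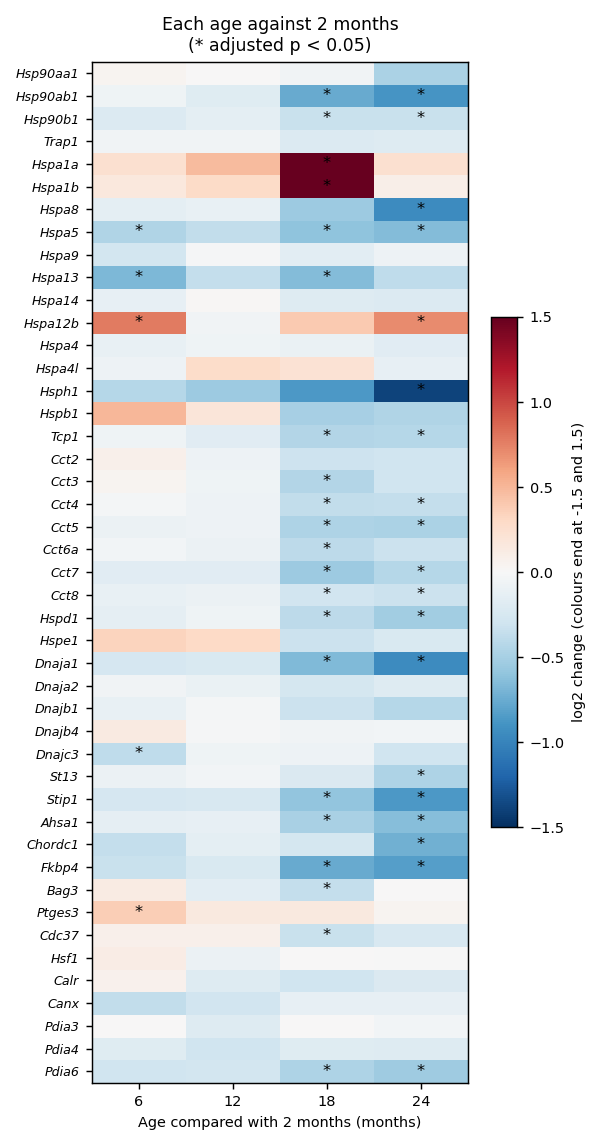
Fitted log2 change of each member at 6, 12, 18 and 24 months against 2 months (colour; the scale ends at -1.5 and 1.5, beyond which the colour stays the same; an asterisk marks adjusted p under 0.05). The columns of 18 and 24 months hold 21 and 19 asterisks, that of 6 months 5 and that of 12 months none.

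Males and females did not differ detectably in these genes. No member passed between the sexes at matched ages (edgeR; 0.101% of all genes called), 1 had an unadjusted p under 0.05, and DESeq2 called none. The slope on age did not pass for a difference between the sexes in any member either (0% of all genes called, 1 member with an unadjusted p under 0.05, none by DESeq2). The median slope of the 22 genes was -0.53 log2 in the 15 male and -0.52 log2 in the 15 female libraries, although with these smaller groups only 3 and 5 of them passed (1.14 and 3.71% of all genes called). The intervals are wide for the steep genes: Hsph1 had -1.67 ± 0.49 log2 in males and -0.87 ± 0.37 log2 in females.

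Within an age and sex, members also varied from library to library, and 12 pairs chosen by function were compared after removal of the 10 group means (log2(CPM + 1), n = 30, two-sided permutation test within groups, adjusted over the 12 pairs). Hspa5 varied with each of the 3 ER genes it was paired with. It had Pearson's r = 0.871 with Hsp90b1 (adjusted p = 1.2e-04; Spearman's rho = 0.848, adjusted p = 2.4e-04) and 0.832 with Pdia4 (adjusted p = 2.4e-04; rho = 0.785, adjusted p = 4e-04). Without the 2 libraries farthest from the median of Hspa5 these were 0.846 and 0.808, and with the share of reads outside genes also removed 0.821 and 0.792. For every pair, the 2 libraries left out were chosen by level before removal of the group means. Libraries far from their own group mean may thus have stayed in. Whether r depends on such libraries was not tested. Hspa5 with Calr gave r = 0.546 (adjusted p = 0.0236; rho = 0.524, adjusted p = 0.0242), 0.577 without 2 libraries, and 0.403 with reads outside genes removed (adjusted p = 0.106).

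The inducible Hspa1a passed with 3 of the 5 other members it was paired with. Hspa1a and Hspa1b had r = 0.971 (adjusted p = 1.2e-04, the smallest that the permutations can give over 12 pairs; rho = 0.984, adjusted p = 1.2e-04), and 0.970 without 2 libraries, for a pair of genes whose reads are hard to tell apart. With Hspa1a, its J-domain partner Dnajb1 had r = 0.540 (adjusted p = 0.00558; rho = 0.584, adjusted p = 0.00816; 0.551 without 2 libraries) and Hsp90aa1 r = 0.400 (adjusted p = 0.0239; rho = 0.442, adjusted p = 0.0327; 0.407 without 2 libraries). Hsph1 (r = 0.0998, adjusted p = 0.606; rho = 0.169, adjusted p = 0.435; 0.151 without 2 libraries) and Hspa8 (r = 0.303, adjusted p = 0.161; rho = 0.323, adjusted p = 0.132; 0.368 without 2 libraries) did not pass with Hspa1a. The immediate early gene Fos gave r = 0.545 with Hspa1a (adjusted p = 0.0567; rho = 0.505, adjusted p = 0.0576; 0.540 without 2 libraries), and 0.578 with reads outside genes removed (adjusted p = 0.0429).

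Both cytosolic HSP90 genes had r = 0.591 with each other (adjusted p = 0.0239; rho = 0.573, adjusted p = 0.0272; 0.528 without 2 libraries). The chaperonin pair Hspd1 and Hspe1 gave r = 0.489 (adjusted p = 0.0619; rho = 0.486, adjusted p = 0.0488; 0.459 without 2 libraries), and Cct2 with Cct5 r = 0.318 (adjusted p = 0.196; rho = 0.369, adjusted p = 0.132; 0.327 without 2 libraries). Over all 990 pairs of members the median r was 0.399, given as a description since pairs share libraries and depth. It was 0.656 among the 28 CCT pairs, 0.634 among the 28 pairs of co-chaperones, 0.679 among the 10 pairs of ER lectins and isomerases and 0.0858 among the 28 HSP70 pairs. The closest pairs after Hspa1a and Hspa1b were Hsph1 with Stip1 (0.926), Hsp90ab1 with St13 (0.925), Hspd1 with Ahsa1 (0.906) and Hspa8 with Stip1 (0.905). Hspa13 and Dnajb4 had negative medians with the other 44 members, -0.203 and -0.207. Hspa13, although ER-bound, had r = -0.317 with Hspa5, -0.522 with Hsp90b1, -0.534 with Pdia4 and -0.630 with Dnajc3.

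**Figure D5:**
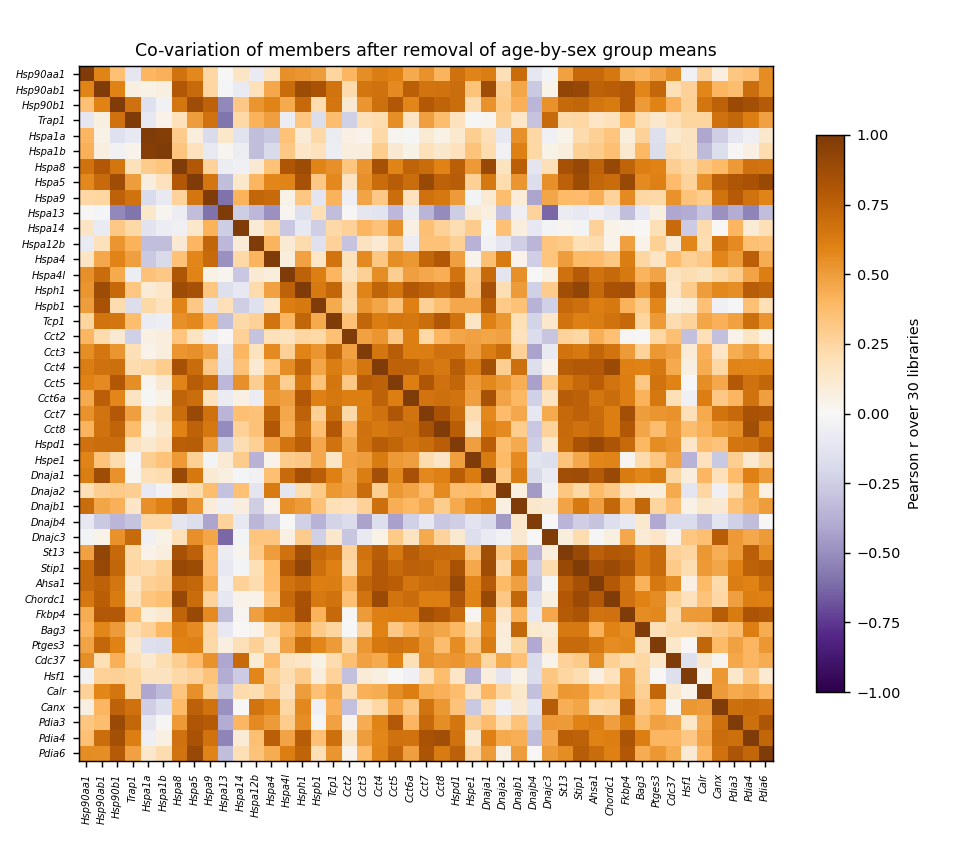
Pearson's r between each pair of the 45 members over 30 libraries, after removal of the 10 age-by-sex group means (colour from -1 to 1; both axes list the members by family). The HSP90, CCT, co-chaperone and ER blocks are mostly positive, Hspa1a and Hspa1b match each other and few others, and Hspa13 and Dnajb4 are pale or negative along their rows.

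The levels of the members spanned a wide range. In mean CPM per kb of annotated exon over the 30 libraries Hsp90ab1 (397) stood first, followed by Hspa5 (185), Pdia3 (182), Hspb1 (148), Fkbp4 (139), Hsp90b1 (114) and Calr (112). The length is that of all exon bases of a gene, merged over its annotated transcripts. A gene with more such bases than its main transcript therefore comes out lower, and the order depends on the annotation. This order pools ages, and it differed between them below the first place: Hspa5 (243) stood above Pdia3 (187) at 2 months, and Pdia3 (182) above Hspa5 (156) at 24. Fkbp4 (182) stood above Hspb1 (148) at 2 months, and Hspb1 (109) above Fkbp4 (103) at 24. Neighbours in the pooled order from Hspa5 down to Calr overlapped in their ranges over the libraries. At the low end were Hsp90aa1 (6.69), Hspe1 (6.66), Dnajb4 (3.44), Hspa13 (3.40) and Hspa4l (2.44). Constitutive Hsp90ab1 thus stood far above inducible Hsp90aa1 per length, with the reservation that reads shared with pseudogenes are lost to Hsp90aa1. Beside Hspa1a, genes on either strand overlap the exon bases of Tcp1 (16.9%), Hsp90b1 (15.7%), Cct6a (15.3%) and Dnaja1 (10.8%), whose counts leave out the reads shared there.

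Other genes of the same pathways were read from 4 lists, and their calls were these. Beside them, 5.22% of all genes had a falling and 5.72% a rising slope that passed. Of 14 heat shock factors and further inducible genes 3 fell and none rose (median slope -0.14 log2): the collagen chaperone gene Serpinh1 (-0.85 ± 0.19 log2, adjusted p = 0.00299), the small heat shock gene Hspb8 (-0.49 ± 0.13) and Hsbp1, a binder of HSF1 (-0.40 ± 0.12). Of 30 further cytosolic co-chaperones and prefoldin subunits 6 fell and none rose (median -0.19 log2), led by Bag2 (-0.79 ± 0.14 log2, adjusted p = 4.63e-04), Cacybp (-0.71 ± 0.16) and the HSP70 nucleotide exchange factor Bag1 (-0.41 ± 0.11). Of 15 genes of mitochondrial folding and proteolysis none passed (median -0.08 log2; 3 with an unadjusted p under 0.05; not run with another tool).

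Of 33 genes of ER stress sensing, folding and degradation, 2 rose and 7 fell (median -0.15 log2). Over all genes 5.72% rose and 5.22% fell, and the count of 2 risers is near that share. The risers were the sensor genes Ern1 (IRE1-alpha, 0.89 ± 0.28 log2, adjusted p = 0.0353) and Atf6 (0.42 ± 0.14 log2, adjusted p = 0.0435). Eif2ak3 and Atf6b, sensor genes of the same list, were not among them. The steepest falls were those of the ER stress-induced Manf (-0.62 ± 0.13 log2, adjusted p = 0.00294) and Sdf2l1 (-0.57 ± 0.15 log2, adjusted p = 0.0112) and of Erp29, an ER folding factor (-0.45 ± 0.12 log2, adjusted p = 0.0111). Of 12 immediate early genes 6 rose and none fell (median 0.62 log2), with Fosb at 1.77 ± 0.43, Egr1 at 1.52 ± 0.29 and Fos at 1.17 ± 0.35 log2. Their direction was opposite to that of the falling chaperones, and their part in the members' values was not tested.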

How the data were processed

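Libraries were full-length SMART-Seq v4 cDNA fragmented with Nextera XT, per the labels' protocols, with neither strand marks nor molecular identifiers. Of the libraries 24 were read as paired and 6 as single ends on another instrument, and the sources used here do not say which, so instrument entered no model. Per the submitters' processing notes, STAR 2.5.2b, HTSeq, FastQC 0.11.4 and MultiQC were used, with the builds GRCm38 and mm10. The authors deposited whole-number read counts per gene in the layout of STAR's counter, not normalized. The column without strand was used, since 49.7 to 50.0% of stranded counts fell on the forward strand. Lines without a gene name stayed out of all sums and tests: 2.51 to 6.26% unmapped, 8.64 to 13.3% at several places, 3.82 to 13.1% outside genes and 3.61 to 4.21% over several genes. Counts per library were 24140980 to 50464366. By these totals, without the TMM factor, 3 counts equal 0.0594 to 0.124 CPM. They are the limit that a count of 0 allows (counting error only).

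Symbols came from a gene name table (48349 of 48795 identifiers matched without version) and GENCODE M21 (48435 matched), which gave coordinates, 1-based. Counts were tested in R 4.3.3 with edgeR 4.0.16 (filterByExpr by age, minimum count 10 and total 15, leaving 16844 genes and putting aside 31951; TMM; robust quasi-likelihood fit to all 30 libraries; Benjamini-Hochberg over all genes tested; threshold 0.05). Models were a slope on months with sex, age as a factor with sex, polynomial terms for the departure from a line, and sex by age. An SE was derived from the F statistic. Pair correlations used 100000 resamples. Shared sequence was counted as stretches of 50 bases of a gene's annotated transcripts found in another gene's. The model code was tested on simulated data. The sex labels matched sex-linked transcripts in 30 of 30 libraries, and no 2 of a group's libraries agreed within sampling noise (75 pairs, chi-square per degree of freedom 16.0 to 197).

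Alternatives were DESeq2 1.42.0, RLE size factors, no filter, covariates for reads outside genes and for longer genes, leaving out each library, ages or 1 sex, and log2 age. They were run on the members, not on the other lists. Named genes were, per family, up to 4 members that passed an age test with the largest changes, plus Hsp90ab1, Hspa8, Hspa5, Hspd1, Tcp1 and Hsf1. Members and lists were chosen with earlier results of these data known. Promoter bases came from RefSeq (GRCm38.p6).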

Additional observations from a re-analysis of the deposited data

Results flagged for a closer look

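In 17 of 225 groups of 6 libraries (45 members at 5 ages) 1 library lay far from the other 5 by Dixon's rule (gap to the nearest divided by the range). Chance alone gives such a library in about 1 group in 20. Male 6-month replicate 2 accounted for 10 of the 17, each time as the highest of its age. It had 1024 CPM of Hspa5 (the others 630.3 to 764), 152 of Hspa1b (18.0 to 64.2), 49.8 of Hspa4l (14.1 to 25.5) and 171 of Hsph1 (23.7 to 65.2). It had 515 CPM of Cct7 (401 to 413), 87.1 of Hspd1 (51.9 to 59.4) and 186 of Dnaja1 (66.4 to 104). Among the co-chaperones it had 266 CPM of Stip1 (91.8 to 145), 173 of Ahsa1 (102 to 117) and 642 of Fkbp4 (316 to 426).

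Male 2-month replicate 1 was low in Trap1, at 59.4 CPM against 78.1 to 89.3, and in Hspa4, at 69.5 CPM against 92.7 to 105. The remaining 5 were spread over 5 libraries. Hsp90aa1 was at 37.2 CPM in female 18-month replicate 1 (others 22.6 to 28.1) and Trap1 at 90.8 CPM in female 6-month replicate 1 (72.4 to 78.7). Hspa9 was at 206 CPM in female 12-month replicate 2 (166 to 180). Low values were Cct3 at 139 CPM in male 24-month replicate 3 (159 to 170) and Dnajc3 at 177 CPM in male 12-month replicate 1 (231 to 255).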

How the results depend on the processing

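No paired analysis was possible because the titles carry codes but no replicate numbers that could pair libraries across ages. Replicates were numbered in accession order. No code shares its stem, the part before the last digit, with a code of another age. At every age but 2 months the stems also differed between the sexes. What a stem stands for is not given, and its part cannot be told apart from that of age. The 22 falling slopes stayed negative under every alternative run. The number of members with a slope that passed was 17 to 26 under the others (26 with DESeq2, which added Hspa1a and Hspa1b as rising and Dnajb1 and Calr as falling), 7 with reads outside genes as covariate, 3 in males and 5 in females only. With reads outside genes as covariate 5 members passed for any age (8.5% of all genes), 3 departed from a line (5.37%) and 10 passed at 24 against 2 months (5.69%). None passed at 18 against 2 (1.27%), 18 against 12 (0.107%) and 24 against 18 months (0.0297%). With longer genes as covariate 1 departed from a line (8.72% of all genes), and 1 passed at 6 against 2 (5.14%), 3 at 18 against 12 (3.22%) and 0 at 24 against 18 months (0.481%). Without the filter 6 passed at 18 against 12 (1675 among all genes) and 0 at 24 against 18 months (99 among all genes). With DESeq2 2 passed at 12 against 6 months (671 among all genes). The cause of these shifts was not tested. A slope without the 4 libraries lowest in longer genes, added after seeing the data, gave 24.

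Leaving out 1 library at a time gave 21 to 24 members for the slope, 25 to 30 for any age, 5 to 10 for a departure from a line, 2 to 12 at 6 against 2 months, 0 to 1 at 12 against 2, 13 to 24 at 18 against 2, 13 to 22 at 24 against 2, 1 to 2 at 12 against 6, 5 to 14 at 18 against 12, 0 to 2 at 24 against 18, and 0 for sex and for its interaction. The shares over all genes are not given for these fits, so the counts describe the members only. The 13 at 18 against 2 months came without male 2-month replicate 2, and the 12 at 6 against 2 without male 6-month replicate 2. At 6 against 2 months 2 or 3 passed without male 2-month replicate 3 or any 1 female library of 2 or 6 months. At 18 against 12 months 5 to 7 passed without male replicate 1 or 3 or female replicate 2 or 3 of 12 months, male replicate 3 of 18 months or any 1 female library of 18 months. No result changed sign among those that passed. Depth did not limit the members, whose lowest value was far above the limit of 3 counts, but reads lost to near-identical copies make the counts of Hspa1a, Hspa1b, Hspb1, Hsp90aa1, Hspd1 and Hspa8 uncertain.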
